A study of Mus musculus with 24 samples.

Results

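The cytosolic ribosomal protein genes encode the protein components of the ribosome that translates nuclear mRNAs. They were taken here as gene symbols of the forms Rpl or Rps plus a number (with an optional a, x, l or y), Rplp0 to Rplp2 and Rpsa. Of 55291 gene names in the count files, 83 had such a symbol, and 77 of these had a mean of at least 50 raw counts over the 24 libraries and are the members described below. They comprise 42 genes of the large subunit, 3 genes of its stalk (Rplp0, Rplp1 and Rplp2) and 32 genes of the small subunit. The 6 symbols left out had means of 0 (Rpl10l), 3.17 (Rpl3l), 6.79 (Rpl32l), 7.79 (Rpl39l), 16.3 (Rpl6l) and 22 (Rpl24), and the members nearest to the minimum had means of 174 (Rps10), 834 (Rps4l) and 1342 (Rpl13a).

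Pulmonary fibroblasts grown from C57BL/6 mice, either wild type (WT) or labelled TLR4-/- for the Toll-like receptor 4 gene, were sequenced as total RNA. Cells of each genotype received PBS, 1 µg/ml recombinant mouse CIRP (rmCIRP, a cold-inducible RNA-binding protein that acts as a danger signal outside the cell), 2 ng/ml rmTGF-β1, or both, for 24 h, after a night in reduced serum. The 8 conditions had 3 libraries each, with 29853346 to 39664606 reads counted on genes per library. The study asked whether extracellular CIRP acts on these fibroblasts through TLR4. The mice were 4 to 8 weeks old, each group's fibroblasts came from a pool of 3 to 4 lungs, and cells were used at passages 3 to 6, so the libraries of a condition may share their animals and p-values then measure only the spread between these libraries.

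Tlr4 itself had 630 to 802 normalised counts in the 12 WT libraries and 702 to 941 in the 12 labelled TLR4-/-, and was higher in the latter after PBS (by 0.25 ± 0.06 on the log2 scale, adjusted p = 0.0012, edgeR). The deleted part of the gene was not identified here, so the label could not be checked from the gene's total count, and TLR4-/- below means the libraries so labelled. The summed normalised count of 10 fibroblast markers was 681665 to 903950 in WT and 696437 to 859171 in TLR4-/- libraries. After PBS, 3 of the 10 were lower and 1 was higher in TLR4-/- cells (edgeR, adjusted p under 0.1). Of all genes tested, 47.1% were called in that comparison, 24% lower and 23.2% higher. Over all libraries Pdgfra had 5036 to 9843 in WT against 2036 to 3961, and Thy1 12306 to 18323 against 6853 to 8343. The sum of 7 endothelial markers was 665 to 1058 against 703 to 1493, and 5 of the 7 were lower and 1 higher after PBS. The sum of 13 macrophage markers was 77512 to 97725 in WT against 325593 to 420541 in TLR4-/- libraries, with no marker at 3 counts or fewer in either, and that of 8 epithelial markers was 24.4 to 116 against 275 to 346, with Sftpb, Nkx2-1 and Scgb1a1 at 3 counts or fewer in every library. Library 3 of TLR4-/- cells given rmTGF-β1 alone and library 3 of those given both agents stood apart from the other 2 of their conditions, with a chi-square of 11.9 to 45.7 per degree of freedom over gene counts against 2.52 to 7.03 for the other pairs within conditions.

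Each mammalian ribosome carries 1 copy of most of these proteins, and a protein made in excess of its partners is degraded, so their synthesis is known to be coordinated. Much of that coordination is translational: their mRNAs start with a C and a run of pyrimidines, the 5′ TOP motif, through which LARP1 and the mTOR pathway control their translation. The mRNA counts given here do not measure translation. Making the ribosome also takes assembly and rRNA processing factors, the ribosome biogenesis genes, whose transcription is a known target of MYC.

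RefSeq promoter sequences (build GRCm38.p6) matched 56 of the 77 members. A C followed by at least 4 bases that were each C or T, starting within 10 bases of the annotated start and read on the gene's own strand only, occurred at a start of 35 of these 56 members (62.5%) and of 34.4% of all 27025 genes in the table. The same letters occurred for 31 of 68 mitochondrial ribosomal protein genes (45.6%) for 9 of 36 ribosome biogenesis genes (25%) and for 7 of 14 genes (50%) of a list of other 5′ TOP mRNAs. Windows of 30 bases, with 15 before the annotated start and the longest such run in capitals, are shown for the member nearest to the group's median profile (Rps6), for members that departed from it (Rpl35, Rpl35a, Rps10, Rpl13a and Rpl13) and for Rpsa, among the genes lower in TLR4-/- cells.
Rps6: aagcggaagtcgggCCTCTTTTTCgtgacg
Rpl35: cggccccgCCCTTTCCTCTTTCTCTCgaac
Rpl35a: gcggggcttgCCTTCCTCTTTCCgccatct
Rps10: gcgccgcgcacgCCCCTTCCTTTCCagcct
Rpl13a: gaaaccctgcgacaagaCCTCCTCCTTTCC
Rpl13: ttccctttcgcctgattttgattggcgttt
Rpsa: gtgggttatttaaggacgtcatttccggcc
They lie at chr4:86857353-86857382 (minus strand), chr2:39005117-39005146 (minus), chr16:33056467-33056496 (plus, 1 of 3 annotated starts), chr17:27635230-27635259 (minus), chr7:45128731-45128760 (minus), chr8:123102335-123102364 (plus) and chr9:120127751-120127780 (plus), in the order shown. Such a run was found for Rps6 and, at 1 or more annotated starts, for Rpl35, Rpl35a, Rps10 and Rpl13a, while no such run began within 10 bases of the annotated start of Rpl13 or Rpsa. The window of Rpl13 holds pyrimidines farther upstream, and the starts of Rpl35a that are not shown had no such run.

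The members took 3.18% to 3.5% of all reads counted on genes. The share was 3.31% to 3.5% in WT and 3.18% to 3.46% in TLR4-/- libraries, so the genotypes overlapped. Per kilobase of the main transcript, the mean level over all libraries was highest for Rplp1 (68906 normalised counts per kb), an acidic stalk protein, followed by Rplp0 (36215), the stalk's base, and Rps12 (35891). The median over 76 members with an annotated length was 16484 per kb. Lowest were Rps10 (269), Rpl13a (1274) and Rpl35 (3708), all of which share exonic bases with another annotated gene as described below.

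Over the 8 conditions the members were close to level. The difference between a member's highest and lowest condition mean (log2 of the normalised count plus 1) had a median of 0.14 and ran from 0.08 to 0.43. It was under 0.2 for 64 of the 77 members (83.1%), against 24.4% of the 6011 tested genes with a mean of at least 1000 raw counts and 12.8% of all 16258 genes tested. The 40 ribosome biogenesis genes had a median range of 0.40, and 2 of the 40 were under 0.2. For 76 mitochondrial ribosomal protein genes the median range was 0.20, and 39 were under 0.2.

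Rplp0, often used as a reference gene, had condition means between 47266 ± 905 (SD, n = 3) in TLR4-/- cells given rmCIRP and 51272 ± 543 in WT cells given both agents. Rps6, the small subunit protein phosphorylated by S6 kinases and the member closest to the median profile, had condition means of 9793 to 10543. Its 24 libraries lay between 9532 and 10695. Rps16, Rpl7a, Rps19 (the gene most often mutated in Diamond-Blackfan anaemia) and Rplp0 followed Rps6 as the closest to the median profile.

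**Figure D1:**
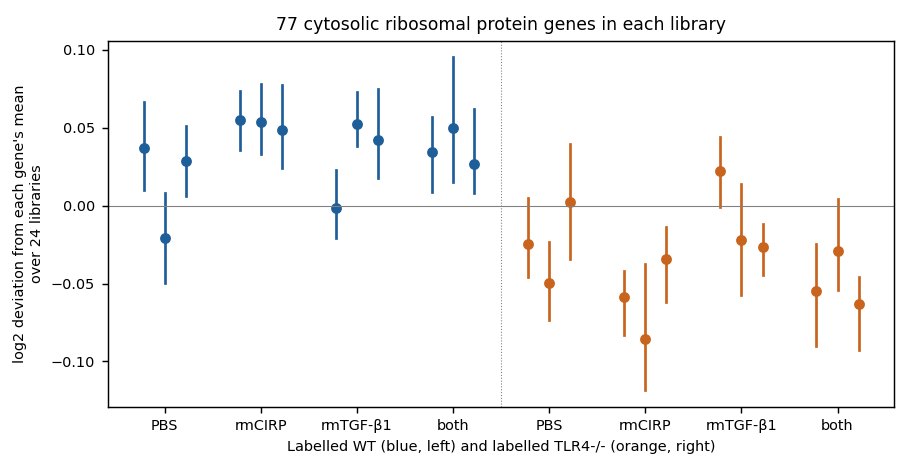
Median over the 77 members of the log2 deviation from each gene's mean over the 24 libraries, for each library (dots) with the interquartile range over members (bars). WT libraries lie between -0.02 and 0.05 and TLR4-/- libraries between -0.09 and 0.02.

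In WT cells rmCIRP left most members near their PBS level. Of the 77 members, 7 were higher and 1 was lower at an adjusted p under 0.1 (edgeR quasi-likelihood test, adjusted over 16258 genes), or 10.4%, where 43.9% of all genes tested and 54.8% of those with a mean of 1000 or more raw counts were called. By direction, 19.8% of all genes were higher and 24.1% lower, and for 23.9% and 26.9% all libraries of one condition lay above or below those of the other. Among the 77 members, 23 were higher and 0 lower without overlap, and 67 had a fold change above 0. The members' median log2 fold change was 0.03, beside -0.02 for all genes, and the members ran from -0.14 to 0.17. Of the subunits, 5 of 42 large subunit genes, 0 of 3 stalk genes and 3 of 32 small subunit genes were called.

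Rpl13, a large subunit protein, had 12368, 12067 and 13477 normalised counts after PBS and 14859, 14405 and 13698 after rmCIRP. The 3 rmCIRP libraries were all above the 3 PBS libraries, and the difference was 0.17 ± 0.05 on the log2 scale (SE, adjusted p = 0.010). Rps2, which lies near the mRNA entry of the small subunit, had 34993, 33934 and 37598 after PBS and 39923, 39576 and 37748 after rmCIRP. These groups did not overlap either, although the nearest libraries were 37598 and 37748 (0.13 ± 0.05, adjusted p = 0.040). Rpl27 moved from 5497 to 5761 after PBS to 5960 to 6337 after rmCIRP (0.12 ± 0.04, adjusted p = 0.010). Rps13, Rpl38, Rpl34 and Rpl35 rose by 0.11, 0.10, 0.09 and 0.13. Rpl38, whose dosage affects the translation of Hox mRNAs in mouse embryos, had the libraries of both groups apart, whereas those of Rpl35 overlapped. The 1 member that fell was Rps4l, a copy of the Rps4 gene, with 950, 925 and 1042 counts after PBS and 881, 844 and 928 after rmCIRP, which overlapped (-0.14 ± 0.05, adjusted p = 0.043).

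The ribosome biogenesis genes moved more in the same libraries. Of 40, 35 rose and 0 fell, with a median log2 fold change of 0.23. Rrp9 (0.46 ± 0.06) and Rrs1 (0.41 ± 0.07), both needed for rRNA maturation, rose most, while Ubtf, the RNA polymerase I factor, was at -0.01 ± 0.04 (adjusted p = 0.88). Among 16 regulators of ribosomal protein synthesis, 7 rose and 4 fell, with Myc at 0.54 ± 0.07 and Deptor, an mTOR inhibitor, at -1.01 ± 0.18. Of 20 other genes listed for 5′ TOP mRNAs, mostly translation factors but also genes such as Npm1, a nucleolar chaperone, and the noncoding Gas5, 6 rose and 0 fell, led by Pabpc1 (0.31 ± 0.05) and Npm1 (0.30 ± 0.05), while Eef1a1 was at -0.05 ± 0.04 (adjusted p = 0.26). Of 76 mitochondrial ribosomal protein genes, 10 rose and 10 fell, with a median of -0.003. In these WT libraries 4 of the 13 macrophage markers were higher and 9 lower after rmCIRP, with log2 fold changes from -0.71 to 2.26. Their sum went from 89619 to 97725 to 78894 to 84140, but most of it was 1 gene, Lyz2, with 58929 to 80417 over all WT libraries. The part of these markers in the members' values was not tested, and in bulk RNA fewer cells of a type and less RNA per cell cannot be told apart.

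The count of called members rested on scaling and on single libraries. With library totals in place of TMM factors, 1 member was higher and 3 lower and the median was -0.01, and leaving out WT PBS library 1 gave 16 calls, whereas leaving out WT PBS library 2 or WT rmCIRP library 1 gave 5 each.

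**Figure D2:**
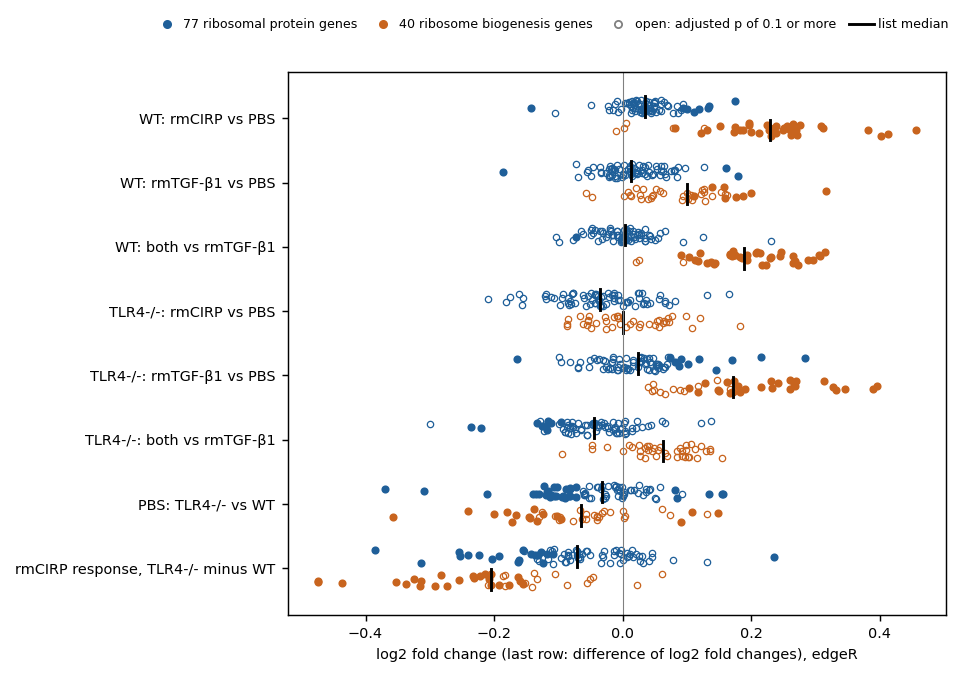
Log2 fold changes of the 77 ribosomal protein genes (blue) and 40 ribosome biogenesis genes (orange) in 8 comparisons, with filled dots for an adjusted p under 0.1 and black bars for list medians. After rmCIRP in WT cells the medians are 0.03 and 0.23, and for the genotype difference of that response they are -0.07 and -0.20.

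After rmTGF-β1 alone in WT cells, 2 members were higher and 1 was lower, or 3.90% of the 77, with 12.4% of all genes called, 5.77% higher and 6.65% lower, and with 14.1% and 15.6% without overlap in those directions, beside 5 and 2 of the members. The median of the members was 0.01, beside -0.02 for all genes. Rpl13 had 14190, 15382 and 13485 counts after rmTGF-β1, all above its PBS libraries (0.18 ± 0.05, adjusted p = 0.033), although the nearest values were 13485 and 13477. Rps2 was 0.16 ± 0.05 higher (adjusted p = 0.048), and its libraries overlapped those of PBS. The rmCIRP and rmTGF-β1 comparisons in WT cells use the same PBS libraries, so the rises of Rpl13 and Rps2 in both are not independent. Rpl23a, at the exit of the peptide tunnel, had 3697, 3819 and 3500 counts after PBS and 3281, 3489 and 2947 after rmTGF-β1. The groups did not overlap, with 3500 and 3489 at their nearest (-0.19 ± 0.06, adjusted p = 0.077). No member passed without WT PBS library 2, and 1 did without WT rmTGF-β1 library 2. Of the biogenesis genes 8 of 40 rose and 0 fell, with a median of 0.10, but 3 rose without WT PBS library 3 and 3 without WT rmTGF-β1 library 2 or 3.

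Adding rmCIRP to rmTGF-β1 in WT cells gave 0 higher and 1 lower member (1.30%), with 42.2% of all genes and 54.9% of those with a mean of 1000 or more raw counts called, and with 24.9% of all genes higher and 25% lower without overlap, beside 3 and 4 of the members. The median was 0.003 beside -0.01 for all genes. The 1 member was Rpl21, with 15354, 15285 and 14986 counts after rmTGF-β1 and 14687, 14609 and 14234 after both agents, which did not overlap (-0.07 ± 0.03, adjusted p = 0.097). In the same comparison 37 of the 40 biogenesis genes rose, with a median of 0.19, and 7 of the 20 other 5′ TOP genes rose and 0 fell. Leaving out WT rmTGF-β1 library 1 or 2, or library 3 of both agents, left 0 members called, leaving out library 1 of both agents gave 2, and leaving out WT rmTGF-β1 library 3 gave 4. With DESeq2 and with RLE factors the 1 member called was higher, not lower. The term for a joint effect of both agents in WT cells, beyond the sum of each alone, called 0 members with edgeR and 0 with DESeq2 (0.0492% of all genes with edgeR). An unadjusted edgeR p under 0.05 was found for 2 members and for 917 of all 16258 genes.

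In TLR4-/- cells rmCIRP called 0 members and 0% of all genes with edgeR, while 5.81% of all genes were higher and 7.91% lower without overlap. Of the 77 members, 6 were higher and 28 lower without overlap. DESeq2 called 2 members, both lower. An unadjusted edgeR p under 0.05 was found for 22 of the 77 members and for 1136 of all 16258 genes. The members' median was -0.03 beside 0.001 for all genes, and 54 members were below 0. The median of the biogenesis genes was -0.0002, with 0 of 40 called.

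After rmTGF-β1 in TLR4-/- cells, 10 members were higher and 1 was lower (14.3%), with 23.9% of all genes and 33.9% of those with a mean of 1000 or more raw counts called, 15.9% of all genes higher and 17.9% lower without overlap (beside 12 and 3 of the members), and a median of 0.02 beside -0.001 for all genes. Rps10, a small subunit protein, had 189, 141 and 164 counts after PBS and 199, 189 and 211 after rmTGF-β1. The nearest libraries of the groups both round to 189, and the difference was 0.28 ± 0.11 on the log2 scale (adjusted p = 0.081), a call lost in 9 of 15 alternatives with an adjusted p of up to 0.33. Rps24 had 21859, 20858 and 21433 counts after PBS and 23259, 23637 and 22472 after rmTGF-β1, without overlap (0.12 ± 0.03, adjusted p = 0.010). Rplp2, an acidic stalk protein, went from 14840, 13286 and 14857 to 16173, 16151 and 15016, also without overlap (0.15 ± 0.04, adjusted p = 0.021). Rpl35a rose by 0.22 ± 0.05 (adjusted p = 0.0033), but its rmTGF-β1 library 3, at 7130, lay under its PBS library 1, at 7162. The 1 member that fell was Rps27l, a p53-responsive copy of Rps27, with 5560, 5631 and 5685 counts after PBS and 5002, 4894 and 5096 after rmTGF-β1 (-0.16 ± 0.04, adjusted p = 0.0078). Its parent gene Rps27 had 8988 ± 319 and 8681 ± 141 (SD, n = 3) in these conditions.

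Of the biogenesis genes 28 of 40 rose with rmTGF-β1 in TLR4-/- cells and 0 fell, with a median of 0.17 and with Polr1b, an RNA polymerase I subunit, at 0.40 ± 0.08. Of the other 5′ TOP genes 6 of 20 rose and 0 fell. Calls of members numbered 4 without TLR4-/- rmTGF-β1 library 1, 7 without library 2, 3 and 6 without TLR4-/- PBS libraries 2 and 3, and were 19 without both libraries that stood apart. With library totals 3 members were higher and 2 lower. The genotype difference in the rmTGF-β1 response called 0 members with edgeR (0.0861% of all genes, 0.0369% higher and 0.0492% lower) and 5 with DESeq2. An unadjusted edgeR p under 0.05 was found for 19 members and for 1686 of all 16258 genes. With edgeR this difference called 2 members without TLR4-/- rmTGF-β1 library 3, 6 with no filter on low counts and 7 without both libraries that stood apart.

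Adding rmCIRP to rmTGF-β1 in TLR4-/- cells gave 10 lower and 0 higher members (12.99%), with 2.69% of all genes called, 1.13% lower and 1.56% higher, and 4.64% of those with a mean of 1000 or more raw counts. Without overlap, 6.02% of all genes were lower and 6.99% higher, beside 29 and 1 of the members. This comparison shares the 3 rmTGF-β1 libraries with the preceding one. Rpl23a had 3431, 3238 and 2904 counts after rmTGF-β1 and 2649, 2708 and 2802 after both agents (-0.24 ± 0.06, adjusted p = 0.090). Rpl35a had 7984, 8003 and 7130 against 6310, 6649 and 6962 (-0.22 ± 0.05, adjusted p = 0.068), and Rpl32 14529, 14383 and 13028 against 12629, 12944 and 12811 (-0.13 ± 0.04, adjusted p = 0.091). In each of these 3 genes rmTGF-β1 library 3, among those that stood apart, was the nearest to the other group. The other 7 that fell were Rps23, Rpl21, Rps24, Rpsa, Rpl17, Rpl23 and Rpl7, by 0.10 to 0.13. Of the biogenesis genes 0 of 40 were called, with a median of 0.06, but 10 rose without rmTGF-β1 library 3 and 17 without library 1 of both agents.

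These calls were not stable. They were 0 in a fit of only the 6 libraries compared, 0 without TLR4-/- rmTGF-β1 library 1 or 2 or without library 3 of both agents, 21 without rmTGF-β1 library 3, and 14 lower and 1 higher without both libraries that stood apart.

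**Figure D3:**
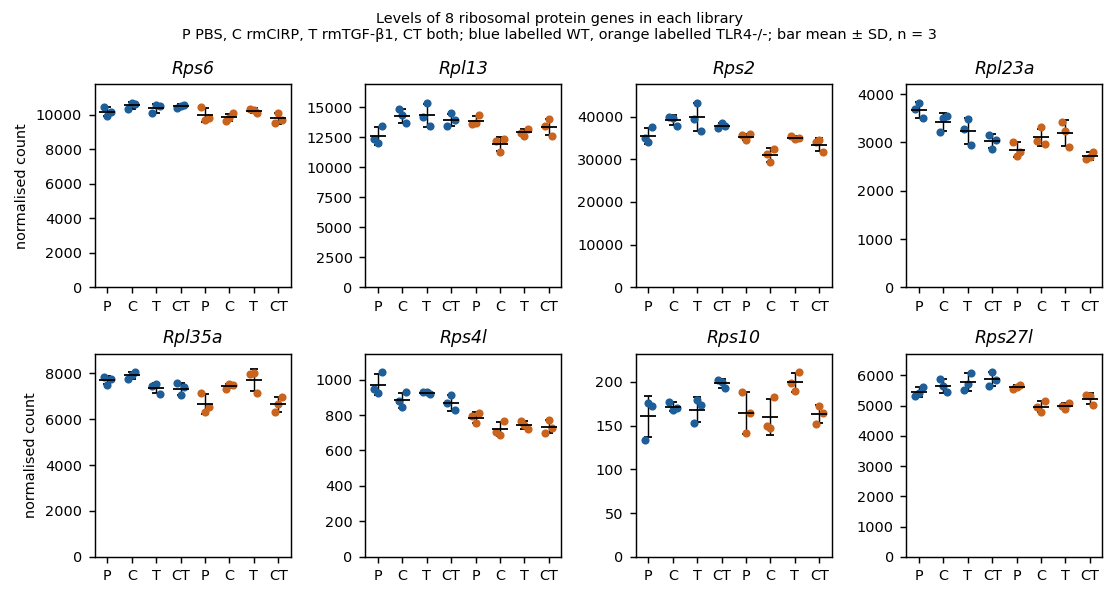
Normalised counts of 8 members in each library (dots) with mean ± SD (bars, n = 3), WT in blue and TLR4-/- in orange, vertical axes from 0. Rps6 lies between 9532 and 10695 throughout, while Rps4l and Rpl23a are lower in TLR4-/- than in WT cells after PBS.

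After PBS, 26 members were lower and 5 were higher in TLR4-/- than in WT cells (40.3% of the 77), with 47.1% of all genes called, 24% lower and 23.2% higher, and with 26.3% lower and 25.5% higher without overlap, beside 26 and 4 of the members. The median of the members was -0.03 beside -0.02 for all genes, and the members ran from -0.37 to 0.16. Both genotypes' cells came from separate pools of lungs, so genotype and pool cannot be told apart. All 13 macrophage markers were higher in TLR4-/- cells (median 2.19), and their part in the members' differences was not tested.

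Rpl23a had 3697, 3819 and 3500 counts in WT and 3019, 2713 and 2812 in TLR4-/- cells, the members' lowest value of this comparison (-0.37 ± 0.06, adjusted p = 7.7e-05). Rps4l had 950, 925 and 1042 against 795, 752 and 810 (-0.31 ± 0.05, adjusted p = 8.4e-05), and all its 12 TLR4-/- libraries, at 689 to 810, lay below all its 12 WT libraries, at 827 to 1042. Its X-linked parent Rps4x, with 25964 to 27222 against 25014 to 25494, was 0.08 ± 0.03 lower. Rpl35a, mutated in some patients with Diamond-Blackfan anaemia, had 7847, 7512 and 7741 against 7162, 6322 and 6510 (-0.21 ± 0.05, adjusted p = 0.0013). The 3 WT libraries were above the 3 TLR4-/- libraries for each of these 4 genes.

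Lower members with other roles included Rpsa, which is also known as a laminin receptor (-0.12 ± 0.03), Rps3, which also acts in DNA repair (-0.09 ± 0.03), and the stalk proteins Rplp1 (-0.10 ± 0.04) and Rplp2 (-0.12 ± 0.04). Rpl5 and Rpl11, which bind MDM2 when assembly is disturbed, were at 0.001 ± 0.03 and 0.05 ± 0.04 and did not pass, whereas Rpl23, which also binds MDM2, was 0.08 ± 0.03 lower. Rps19 (-0.01 ± 0.03) and Rplp0 (-0.01 ± 0.03) did not pass either. The 5 higher members were Rpl35 (0.16), Rpl30 (0.15), Rpl13 (0.13), Rps27a (0.08), which encodes ubiquitin fused to a ribosomal protein, and Rps13 (0.08). Rpl30 had 3988, 3899 and 4246 counts in WT and 4285, 4486 and 4759 in TLR4-/- cells, without overlap (adjusted p = 0.035). The groups of Rpl13 and Rps13 did not overlap, and those of Rpl35 and Rps27a did.

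Of the biogenesis genes 13 of 40 were lower and 3 higher (median -0.06), led by Gar1, a component of H/ACA particles (-0.36 ± 0.08), and of the other 5′ TOP genes 10 of 20 were lower and 3 higher, led by Npm1 (-0.19 ± 0.05) and by Eif2s3x at the other end (0.24 ± 0.03). Without WT PBS library 1, 8 members were lower and 5 higher, and without TLR4-/- PBS library 3, 17 were lower and 2 higher. The biogenesis genes lower numbered 6, 7 and 6 without WT PBS library 1, WT PBS library 2 and TLR4-/- PBS library 3, and those higher numbered 1 without WT PBS library 2 or 3.

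The rmCIRP response was then compared between genotypes, as the response in TLR4-/- cells minus that in WT cells. This difference uses the same PBS libraries as the genotype comparison after PBS, with the opposite sign. A gene high in TLR4-/- cells after PBS is by that alone shifted toward a lower difference, so these results are not independent. For 18 members this difference was below 0 and for 1 above 0 at an adjusted p under 0.1 (24.7%), with 31.4% of all genes and 40.6% of those with a mean of 1000 or more raw counts called, 14.3% of all genes below and 17.1% above 0. The median of the members was -0.07 beside 0.03 for all genes, and 59 members were below 0. Of the 40 biogenesis genes 25 were below 0 and 0 above, with a median of -0.20.

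Rpl13 had 13642, 13696 and 14355 counts in TLR4-/- cells after PBS and 12195, 11303 and 12402 after rmCIRP, which were all lower. With the rise in WT cells given above, its difference of responses was -0.39 ± 0.07 (adjusted p = 0.00048). Rps2 had 35593, 34442 and 35804 after PBS and 31229, 29351 and 32423 after rmCIRP in TLR4-/- cells, and its difference was -0.31 ± 0.07 (adjusted p = 0.0022). Rpl30 had 4054, 3841 and 4153 after rmCIRP in TLR4-/- cells, all below their PBS libraries, with a difference of -0.26 ± 0.08 (adjusted p = 0.024). These 3 genes were each lower after rmCIRP in all 3 TLR4-/- libraries than in the 3 PBS libraries, although no member passed in TLR4-/- cells taken alone with edgeR. They were named for the size of a difference that includes this fall, so the lack of overlap is not separate support for it. In all, 28 of the 77 members were lower without overlap in that comparison, beside 7.91% of all genes.

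Rpl13a, which takes part in a complex that silences inflammatory mRNAs, had 1300, 1230 and 1277 counts in WT cells after PBS and 1288, 1398 and 1364 after rmCIRP. In TLR4-/- cells it had 1321, 1369 and 1379 after PBS and 1225, 1192 and 1221 after rmCIRP. The WT groups overlapped and the TLR4-/- groups did not, and the difference of responses was -0.24 ± 0.08 (adjusted p = 0.041). Rps27l (-0.22 ± 0.06), Rpl27 (-0.20 ± 0.05), Rpl39 (-0.19 ± 0.07), which lines the exit tunnel, Rps27 (-0.15 ± 0.05) and Rpl38 (-0.14 ± 0.05) were among the others below 0. Rpl23a was the 1 member above 0 (0.24 ± 0.09, adjusted p = 0.065, a call lost in 7 of 21 alternatives with an adjusted p of up to 0.24), with 3219, 3507 and 3554 counts after rmCIRP in WT cells and 3029, 3310 and 2977 in TLR4-/- cells.

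The number below 0 was 8 (and 2 above) with library totals, 31 with a filter at a mean count of 10 and 32 with DESeq2. It was 11 without WT rmCIRP library 1 and 32 without WT PBS library 1.

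Most members followed a shared profile over the conditions. For each member, the 8 condition means were correlated with the median profile of the other members. The median Pearson r was 0.85 over 77 members (n = 8 conditions each, which share libraries and scaling factors), 45 members had an r of at least 0.8, and 76 had an r above 0. The same value was 0.95 for the 40 biogenesis genes, 0.70 for the 20 other 5′ TOP genes and 0.24 for the 76 mitochondrial ribosomal protein genes. The median profile was highest in WT cells given rmCIRP (0.05) and lowest in TLR4-/- cells given rmCIRP (-0.06) as log2 deviations. This order depended on the scaling. By mean share of reads, WT cells given PBS were highest (3.43%, with 3.42% for rmCIRP). Lowest by that share were TLR4-/- cells given both agents (3.25%, with 3.28% for rmCIRP). Rps27a was the 1 member with an r below 0 (-0.18).

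In a principal component analysis of the members' log2 levels in the 24 libraries, the first component held 49.8% of the variance and all 77 members had the same sign on it. Scores were above 0 in 11 of 12 WT libraries and in 1 of 12 TLR4-/- libraries. The second component held 24.3%, with Rpl35, Rpl13a, Rpl30 and Rpl13 at one end and Rpl23a, Rpl35a, Rpl32 and Rpl21 at the other. The component after it held 9.1%.

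The members farthest from the median profile, by root mean square distance over the 8 conditions, were Rps4l (0.13), Rps10 (0.11), Rpl23a (0.11), Rpl35 (0.08) and Rpl35a (0.08), where the median over all members was 0.03. Rps2, Rpl13a, Rpl13, Rpl30 and Rps27l followed. Of these 10, 7 were among the 10 members with the fewest raw counts. In the GENCODE M21 annotation, 8 members shared at least 20% of their exonic bases with another gene, and 5 of the 8 were among the 10 farthest. Rps10 shared 20.6% with the readthrough gene RPS10-NUDT3 and Rpl13a shared 35.4% with other genes on its own strand, among them Gm45713, while Rpl35 shared 66.2% with Arpc5l and Wdr38, Rpl23a 59.7% with Tlcd1 and Rpl30 20.4% with D730044K07Rik on the opposite strand. Rpl24, which fell under the minimum at 22 counts, shared 47.0% with Gm28037 on its own strand. The median distance was 0.07 for the 8 members with such overlap and 0.03 for the others. Mean raw counts of the partners were 0 for Gm45713 and Gm28037, 3.71 for Wdr38, 113 for Tlcd1 and 1612.5 for Arpc5l. The part of overlap in the values of these genes was not tested. The strand setting of the counting is not given in the sources used here. It is therefore not known whether reads on bases shared with an antisense partner were counted or went to the tally of ambiguous reads, which was left out.

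**Figure D4:**
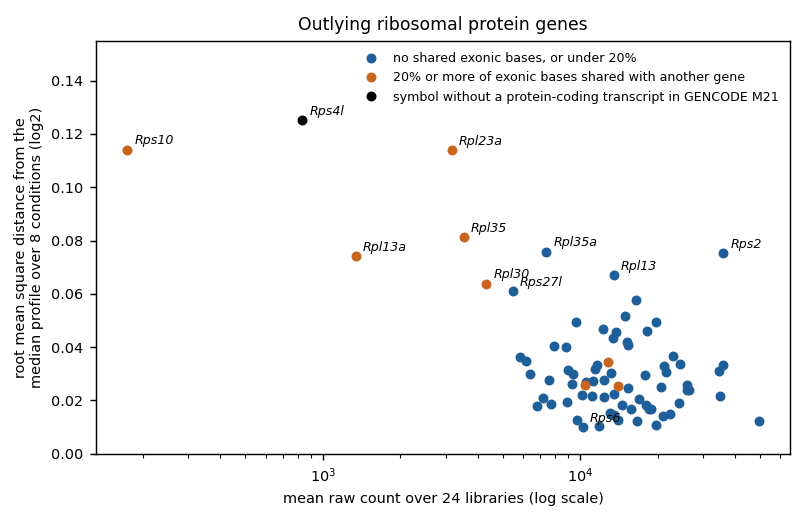
Root mean square distance of each member from the members' median profile over 8 conditions (log2 scale) against its mean raw count (log axis), with members sharing 20% or more of their exonic bases with another gene in orange. Rps10, Rpl13a, Rpl23a, Rpl35 and Rpl30 combine a large distance, of 0.06 to 0.11, with such overlap, and Rps4l has no protein-coding transcript in the annotation used.

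Copies of ribosomal protein genes differed widely in level. Rpl10l, Rpl3l and Rpl39l, known mainly from testis or muscle, had means of 0, 3.17 and 7.79 raw counts, beside 26041, 20630 and 8775 for their parents Rpl10, Rpl3 and Rpl39. Rps27l was higher, with 4793 to 6106 normalised counts beside 8033 to 9774 for Rps27. Rpl7l1, related to Rpl7 and outside the symbol forms used, had 3575 to 4352 normalised counts beside 22269 to 26011 for Rpl7. Rpl22l1, a copy of Rpl22 also outside them, had 1018 to 1179 normalised counts beside 6297 to 7056 for Rpl22. Reads not aligned uniquely were left out of the gene counts, in a tally line that held 6.07% to 6.82% of each file's total. How many of them came from members, copies or pseudogenes was not tested, so the values of copies and of parents with similar copies are uncertain. Among the reads counted on genes, the 318 pseudogene symbols of these families together held 0.0070%, beside 3.36% for the members.

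Ribosomal protein genes outside the symbol forms showed a mixed picture. Rps3a1, added after its values were seen because the forms miss it, had condition means of 18776 to 19827 normalised counts and no adjusted p under 0.30 in any of the 10 comparisons. Rack1, a scaffold on the small subunit head, had condition means of 32856 to 37569. Of the 8 genes of this list, 3 rose and 0 fell with rmCIRP in WT cells, and 3 were higher and 1 lower in TLR4-/- than in WT cells after PBS. Fau, which encodes a ubiquitin-like protein fused to a ribosomal protein, was 0.21 ± 0.05 higher in TLR4-/- cells after PBS (log2 scale).

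Transcript length and base composition were related only weakly to the members' fold changes. Over 76 members, Pearson's r with transcript GC content ran from -0.25 to 0.29 and that with log2 length from -0.11 to 0.09 in the 10 comparisons.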

How the data were processed

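Raw counts per gene, one file for each of 24 libraries, were the deposited values. The authors aligned stranded total RNA reads (STAR2, mouse GENCODE) and counted them per gene with ht-seq; the submitters' processing notes name the build NCBIM37, and versions, release and strand setting are not given in the sources used here. The 5 tally lines of each file (14.5% to 16.1% of its total) were left out. Levels are counts divided by DESeq2 size factors. Tests used edgeR 4.0.16 (TMM, filterByExpr, 1 model of 8 conditions, quasi-likelihood) with Benjamini-Hochberg adjustment over 16258 genes at 0.1, the threshold of the study. The code was also run on simulated counts with the same spread for every gene and with changes larger than those of the members. That run cannot vouch for calls on changes as small as these. DESeq2 1.42.0 was an alternative. Of the symbols, 53292 of 55291 matched GENCODE M21, used for lengths and overlaps; its build differs, so counts and annotation may not correspond gene by gene. Members, lists and tests were chosen with earlier results of these data known. Members named are the 3 largest called changes each way without overlap, the 5 farthest from and closest to the median profile, and a list with known roles; some further called members, such as Rps13, Rps27a and Rpl39, were named after their values were seen. Depth limits the precision of low members such as Rps10. The values of 1 gene outside the symbol forms are not reported here.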

Additional observations from a re-analysis of the deposited data

Results flagged for a closer look

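The rmCIRP response differed between genotypes by a test of the difference itself (edgeR, TLR4-/- minus WT, adjusted over 16258 genes). This held for 18 ribosomal protein genes with a lower and 1 with a higher response in TLR4-/- cells, and for 25 ribosome biogenesis genes with a lower one. The called members were 24.7% of the 77, beside 31.4% of all genes and 40.6% of those with a mean of 1000 or more raw counts, and with library totals 8 members were lower. Among the named members, Rpl13 differed by -0.39, Rps2 by -0.31, Rpl30 by -0.26, Rpl13a by -0.24, Rps27l by -0.22 and Rpl27 by -0.20 on the log2 scale, and Rpl23a by 0.24, a call lost in 7 of 21 alternatives. The macrophage marker sum was 325593 to 420541 in TLR4-/- against 77512 to 97725 in WT libraries, and its part in these differences was not tested. The PBS libraries of this test are also those of the genotype comparison after PBS, so the results of both are not independent. No group of 3 libraries was tested for outlying values.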

How the results depend on the processing

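Counts of called members (higher plus lower) moved by over 1.5 times as follows; the cause was not tested. For rmCIRP in WT cells the count was 8, and 13 with DESeq2, 4 with library totals, 19 with a mean count filter of 10 and 19 in a fit of only the libraries compared. For rmTGF-β1 in WT cells it was 3, and 7 in the smaller fit. For both agents against rmTGF-β1 in WT cells it was 1, and 4 with totals, 0 with no filter, 5 (all higher) with the filter of 10, 4 in the smaller fit and 3 without both libraries that stood apart, an alternative chosen after seeing the data. In TLR4-/- cells it was 0 for rmCIRP, and 2 with DESeq2, 4 with no filter and 1 in the smaller fit; it was 11 for rmTGF-β1, and 5 with totals, 6 with no filter, 3 in the smaller fit and 19 without both libraries; it was 10 for both agents against rmTGF-β1, and 17 with DESeq2 (which gave 1 member no adjusted p), 6 with RLE factors, 4 with totals, 3 with no filter and 0 in the smaller fit. For genotype after PBS it was 31, and 13 with no filter. For the genotype difference in the rmCIRP response it was 19, and 33 with DESeq2, 10 with totals, 32 with the filter of 10 and 29 in the smaller fit; in the rmTGF-β1 response it was 0, and 5 with DESeq2, 6 with no filter and 7 without both libraries. The interaction had 0, and 2 with no filter. TMM factors from genes other than the members and a member minimum of 1000 moved none of the 10 counts by over 1.5 times.

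Leaving out 1 library at a time gave 5 to 16, 0 to 4 and 0 to 4 calls for the 3 WT comparisons in the order above, 0 throughout, 3 to 14 and 0 to 21 for those in TLR4-/- cells, 13 to 28 for genotype, 11 to 32 and 0 to 2 for the genotype differences and 0 for the interaction. Of 492 alternative values for 30 named gene values, 426 kept direction and call, 66 kept direction only and 0 reversed. The median correlation with the members' profile was 0.85, and 0.73 with library totals. Members' share of reads was 3.36%, and 4.67% of the reads outside the 100 top genes and the members.

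Whether replicate numbers pair libraries was not settled. Deviations of same-numbered libraries correlated at 0.01 on average (-0.12 to 0.37 over 84 pairs), beside -0.006 for libraries with different numbers. Of 24 libraries, 13 correlated best with a library of their own number. A replicate block gave 7, 3, 1, 0, 10, 10, 30, 20, 0 and 0 calls in the 10 comparisons in the order above and moved none by over 1.5 times.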
